A study of Ipomoea batatas with 9 samples.

Results

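Heat shock proteins of the HSP70 and HSP90 families were followed through cold storage of the sweetpotato cultivar Xushu 18. The set holds 87 of the 110110 contigs of the study's transcript table, namely every contig whose product description contains "heat shock" or "hsp70-interacting" and is not a transcription factor. Storage roots (Ipomoea batatas) had been sampled without storage, after storage at 14 °C, or after storage at 4 °C, both stores at 85% relative humidity. Each of the 3 groups had 3 RNA sequencing libraries, and each library came from a pool of 7 roots. The labels name no transgene or chemical treatment, all roots were of the 1 cultivar, and the labels do not say how long they had been in store.

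HSP70 proteins are ATP-driven chaperones that bind exposed hydrophobic stretches of unfolded proteins and release them for folding. Plants keep separate HSP70s in the cytosol, the plastids, the mitochondria and the endoplasmic reticulum (ER), where the HSP70 is called BiP, and the cytosol holds both constitutive forms (HSC70) and forms induced by stress. J-domain proteins bring clients to HSP70, nucleotide exchange factors such as HSP110 and FES1 reset it, and HSP90 takes over late folding steps, with a separate ER form also called endoplasmin or GRP94. These chaperones are best known from heat, and several plant HSP70s are also known to respond to low temperature.

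By their descriptions, 57 contigs were HSP70s of the cytosolic type (heat shock 70kDa protein 1/8), 15 were BiP (70kDa protein 5), 2 were HSP110-like (70kDa protein 4), 8 were ER HSP90 (90kDa beta), 2 were HSP70-interacting proteins and 3 were HspQ. After the table had been read, 25 of the 57 were set apart as plastid. They had a deposited Gene Ontology term for chloroplast and none for cytosol, or the symbols HSP70-6 or HSP70-7, which name plastid HSP70s in Arabidopsis. The remaining 32 are called cytosolic here, and no Gene Ontology term for cytosol was required of them. All HSP90 members were of the ER type, because HSP90s described in this table as molecular chaperone HtpG do not meet the rule. Contigs were 213 to 3145 bases long with a median of 613 bases, and 15 were over 2000 bases, so that most were fragments of a coding sequence. Sweetpotato is polyploid and its gene copies can share reads, so the level of any single contig is uncertain where its symbol recurs.

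Library totals ran from 67.6 to 95.4 in units of 1000000 estimated counts. The limit that a count of 0 allows, 3 counts, was 0.0314 to 0.0444 per 1000000 of these totals, without TMM factors. Below, CPM are counts per 1000000 scaled with TMM factors unless another scaling is named. Markers of the storage root moved with the groups: summed over its 8 contigs, granule-bound starch synthase had 4062 ± 519 CPM (SD, n = 3 here and throughout) in roots not stored, 6245 ± 751 CPM at 14 °C and 157 ± 18.5 CPM at 4 °C. The 9 sporamin contigs, the main root storage protein, summed to means of 93961, 29760 and 156 CPM, and 116 contigs of light-harvesting and photosystem proteins to 2074, 589 and 192 CPM. Their part in the results below was not tested, and in whole roots fewer cells of a type and less RNA per cell cannot be told apart. Within groups, no pair of libraries agreed within sampling noise.

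At 4 °C most heat shock contigs stood above their level at 14 °C, and the shift was carried by BiP and the cytosolic HSP70s. Of the 87 members, 83 passed the filter on low counts and could be tested. In edgeR's quasi-likelihood test (adjusted p under 0.05), 44 were higher and 12 lower at 4 °C than at 14 °C. Over all 94802 contigs tested, 47.8% were called in this comparison, 23.8% higher and 24% lower. The members' median log2 fold change was 0.75, against -0.08 over all contigs, and 30 of the 44 rises and 4 of the 12 falls were at least 2-fold.

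Against roots not stored, 40 members were higher and 13 lower at 4 °C, with a median log2 fold change of 0.43 against -0.02 for all contigs. The background was 52.5% called, 26% higher and 26.6% lower. Storage at 14 °C gave no such lean: 17 members were higher and 17 lower than in roots not stored, and the median was -0.24 against 0.02. Here 30.9% of all contigs were called, 15.1% higher and 15.7% lower. The split of the 14 °C calls moved with the scaling, to 15 higher and 23 lower with DESeq2 size factors and to 18 higher and 9 lower with library totals alone, which moved the median of all contigs from 0.02 to 0.27. Library totals alone also moved the median of all contigs for 4 °C against 14 °C from -0.08 to -0.23. It also moved with single libraries, since 11 and 9 members were lower without the first and the second library at 14 °C. The comparisons share libraries pairwise, so they are not independent of each other.

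**Figure D1:**
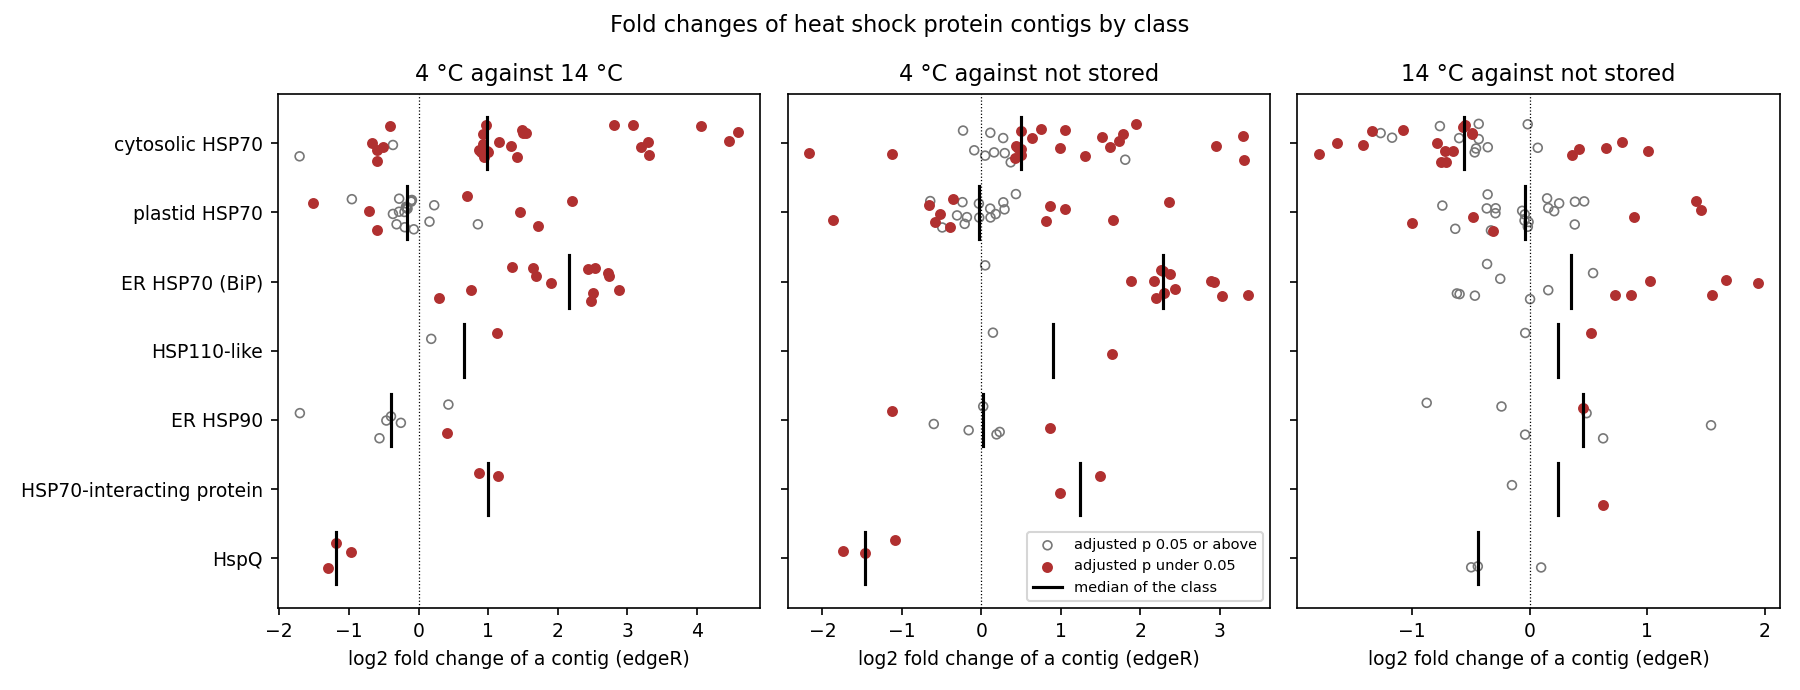
Log2 fold changes of the 83 tested heat shock contigs (horizontal axes, edgeR) by class (vertical axis) in the 3 comparisons. Filled points had an adjusted p under 0.05, open points did not, and vertical bars are class medians over all tested contigs. The BIPE3 contig comp920_c1, without counts at 4 °C, is not drawn in either comparison with 4 °C but is counted in the medians. BiP contigs lie to the right at 4 °C (median 2.17 against 14 °C), cytosolic HSP70s spread widely, and plastid HSP70s centre near 0.

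Most tested cytosolic HSP70 contigs were higher at 4 °C than at 14 °C. The strong responders described next were picked for large changes, so their high standing at 4 °C was largely set by that choice. Contigs named for large rises or falls had to show no overlap between the libraries of the comparison that named them. Of the 32 contigs, 30 were tested, and 23 were higher and 5 lower at 4 °C than at 14 °C, with a median log2 fold change of 0.99. Over all contigs tested, 23.8% were higher and 24% lower. The highest-reading of the strong responders was the 2301-base contig comp11814_c1, symbol HSP70. It had 28, 57.3 and 22 CPM in the libraries of roots not stored, 22.5, 19.4 and 21.3 CPM at 14 °C, and 332, 388 and 335 CPM at 4 °C. Every library at 4 °C stood far above the other 6, and the second library of roots not stored was the highest of those 6. The rise was 16.7-fold against 14 °C (log2 fold change 4.06 ± 0.32, adjusted p = 3.04e-06) and 9.83-fold against roots not stored (log2 fold change 3.30 ± 0.31, adjusted p = 8.95e-06; errors of log2 fold changes are SEs).

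Other contigs had the same order of groups. HSC-I comp77226_c1 had 7.85, 14.9 and 4.85 CPM in the libraries of roots not stored, 3.43, 2.68 and 2.75 CPM at 14 °C, and 75.7, 73.3 and 64.4 CPM at 4 °C. HSP70 comp49945_c1 had 5.78, 16.5 and 5.76 CPM in the libraries of roots not stored, 5.56, 3.49 and 3.39 CPM at 14 °C, and 87.7, 102 and 84.2 CPM at 4 °C. In both, the libraries at 4 °C did not overlap those of either other group, which the naming rule required at least against 14 °C. The second library of roots not stored again read highest of its group. Their log2 fold changes for 4 °C against 14 °C were 4.59 ± 0.37 (adjusted p = 3.53e-06) and 4.46 ± 0.44 (adjusted p = 2.56e-05).

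MED37C, in Arabidopsis another name for a cytosolic HSP70 that was also found with the Mediator complex, had 7 contigs. Its contig comp98390_c1 had 8.75, 14 and 11 CPM in the libraries of roots not stored, 3.14, 3.34 and 3.29 CPM at 14 °C, and 31, 35.3 and 30.3 CPM at 4 °C. HSP70 comp29974_c1 had 9.55, 11.6 and 13.4 CPM in the libraries of roots not stored, 4.88, 4.32 and 3.77 CPM at 14 °C, and 34.5, 44.8 and 39.8 CPM at 4 °C. Both were lowest at 14 °C and highest at 4 °C, with no overlap between any pair of groups, part of which the naming rule required. MED37C comp98390_c1 rose 9.88-fold at 4 °C against 14 °C (log2 fold change 3.30 ± 0.18, adjusted p = 3.17e-08) and was 3.45-fold lower at 14 °C than in roots not stored (log2 fold change -1.79 ± 0.17, adjusted p = 1.68e-05). For HSP70 comp29974_c1 the same comparisons gave log2 fold changes of 3.20 ± 0.17 (adjusted p = 3.36e-08) and -1.41 ± 0.16 (adjusted p = 6.86e-05). HSC-I comp77226_c1 and HSP70 comp79398_c4 also fell at 14 °C against roots not stored, with log2 fold changes of -1.64 ± 0.33 (adjusted p = 0.00456) and -1.34 ± 0.30 (adjusted p = 0.00513).

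Across the cytosolic class, 19 contigs were higher and 2 lower at 4 °C than in roots not stored, and 5 were higher and 14 lower at 14 °C than in roots not stored. Over all contigs tested, 26% were higher and 26.6% lower in the first comparison, and 15.1% and 15.7% in the second. The 5 contigs higher at 14 °C (16.7%) were near that share. The class counts leaned on single libraries. Without the second library at 4 °C, 12 were higher at 4 °C than in roots not stored. Without the first or the second library at 14 °C, 9 or 8 were lower at 14 °C. The 5 contigs higher at 14 °C became 3 without any 1 library other than the third of roots not stored, the second at 14 °C, and the first and the third at 4 °C, and the 2 lower at 4 °C than in roots not stored became 1 without the second or the third library of either group. The count for 4 °C against 14 °C stayed at 21 to 23 higher and 5 to 6 lower with any library left out. Beside the strong responders, 8 short contigs of the constitutive HSC-2 rose by 0.87 to 1.00 log2 units at 4 °C against 14 °C.

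**Figure D2:**
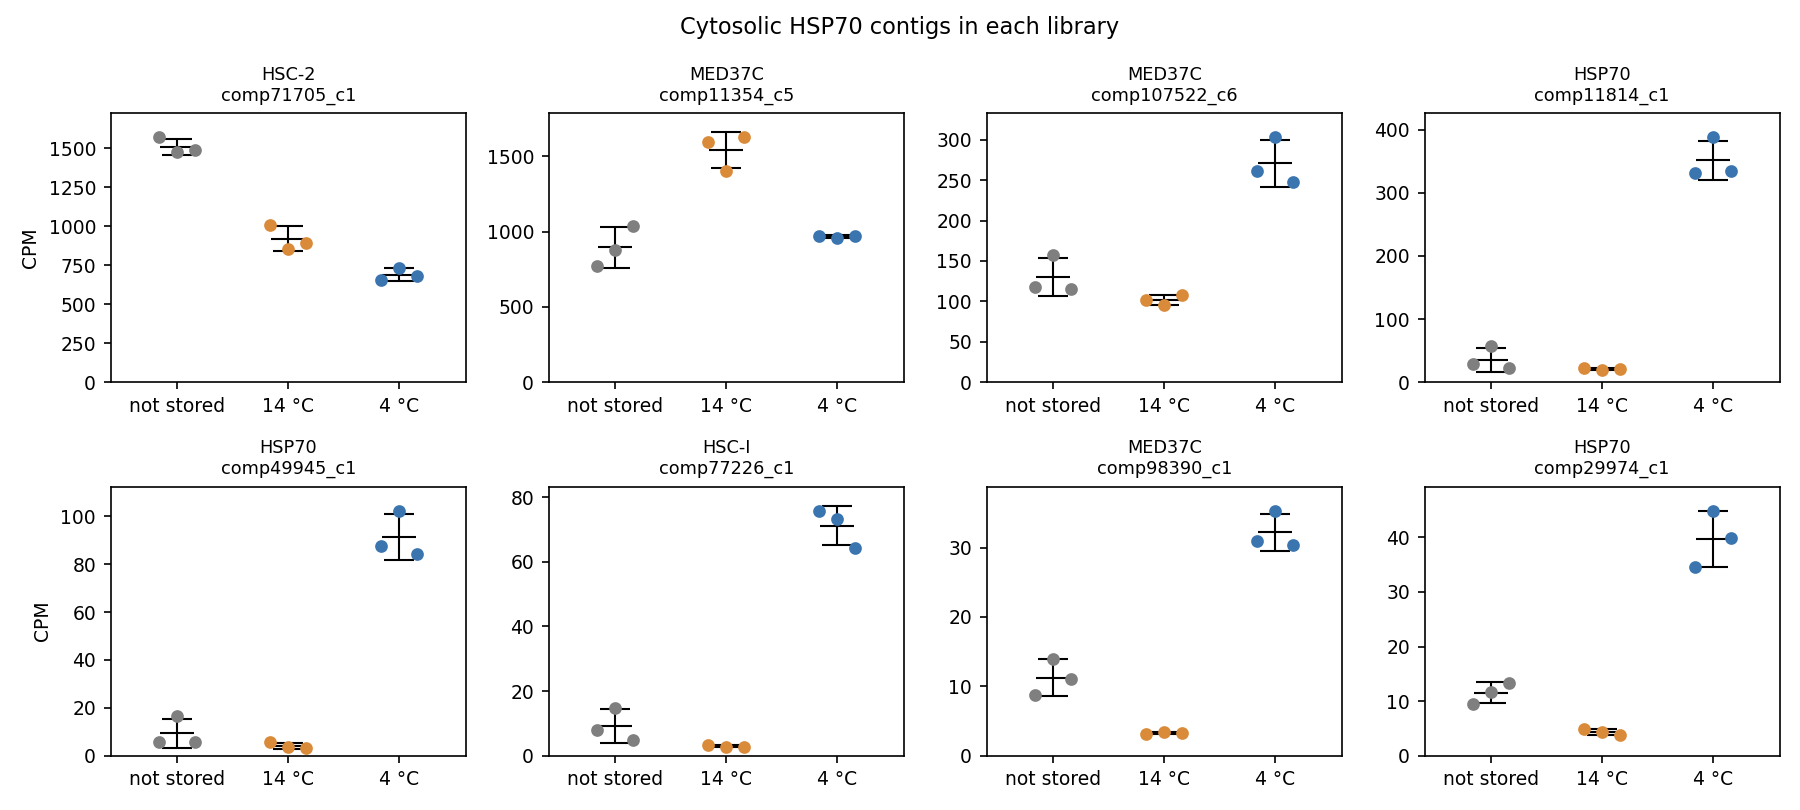
CPM (vertical axes, each from 0 and on its own scale) of 8 cytosolic HSP70 contigs in the 9 libraries. Points are libraries and bars are group means ± SD (n = 3). The abundant HSC-2 contig comp71705_c1 is lowest at 4 °C, the abundant MED37C contig comp11354_c5 is highest at 14 °C, and the other 6 are highest at 4 °C.

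The 2 most abundant heat shock contigs, both of the cytosolic class, did not follow that pattern. HSC-2 comp71705_c1, a constitutive-type HSP70 of 2311 bases, had 1568, 1474 and 1487 CPM in the libraries of roots not stored, 1008, 853 and 895 CPM at 14 °C, and 653, 735 and 682 CPM at 4 °C. MED37C comp11354_c5, of 2114 bases, had 769, 877 and 1039 CPM in the libraries of roots not stored, 1595, 1403 and 1625 CPM at 14 °C, and 971, 957 and 973 CPM at 4 °C. HSC-2 stepped down from roots not stored to 14 °C to 4 °C with no overlap between groups, while MED37C stood highest at 14 °C and its other 2 groups overlapped. HSC-2 was 1.64-fold lower at 14 °C (log2 fold change -0.72 ± 0.11, adjusted p = 0.000418) and 2.19-fold lower at 4 °C (log2 fold change -1.13 ± 0.11, adjusted p = 3.14e-06) than in roots not stored. MED37C rose 1.72-fold at 14 °C (log2 fold change 0.78 ± 0.12, adjusted p = 0.000641) and did not differ beyond its spread between 4 °C and roots not stored (log2 fold change 0.11 ± 0.12, adjusted p = 0.473). Both were lower at 4 °C than at 14 °C, with log2 fold changes of -0.41 ± 0.11 (adjusted p = 0.00688) for HSC-2 and -0.67 ± 0.12 (adjusted p = 0.000764) for MED37C.

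Contigs of the same symbol moved in opposite directions. Beside comp71705_c1, the other 9 HSC-2 contigs were 256 to 731 bases long, and 8 of the 10 HSC-2 contigs were higher at 4 °C than at 14 °C while the longest was lower. Of the 7 MED37C contigs, 4 were higher and 3 lower at 4 °C than at 14 °C. The third most abundant contig of the type, MED37C comp107522_c6 of 1355 bases, had 118, 158 and 116 CPM in the libraries of roots not stored, 102, 95.9 and 108 CPM at 14 °C, and 262, 303 and 248 CPM at 4 °C. It was highest at 4 °C without overlap (log2 fold change 1.41 ± 0.14, adjusted p = 5.75e-06), opposite to the longer contig of its symbol.

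Summed over the 32 contigs, the cytosolic HSP70s had 3079 ± 108 CPM in roots not stored, 3070.5 ± 217 CPM at 14 °C and 3179.5 ± 167 CPM at 4 °C. The libraries of the 3 groups overlapped, and the log2 ratio of 4 °C to 14 °C was 0.05. The ratio turned to -0.10, without overlap, with library totals alone. In the deposited TPM the sum was lowest in roots not stored, at 1949.9 ± 272, against 2706 ± 189.6 at 14 °C and 2833 ± 55.3 at 4 °C. The make-up of the sum differed between the groups. HSC-2 comp71705_c1 took 49.1% ± 3.40 of it in roots not stored, 29.9% ± 1.43 at 14 °C and 21.7% ± 0.58 at 4 °C. HSP70 comp11814_c1 took 1.16% ± 0.60, 0.69% ± 0.01 and 11.0% ± 0.41, and MED37C comp11354_c5 took 29.0% ± 3.52, 50.2% ± 1.15 and 30.5% ± 1.83. Per kilobase, the order at 4 °C was MED37C comp11354_c5 with 457 ± 4.25 CPM per kb, HSC-2 comp71705_c1 with 299 ± 17.9, MED37C comp107522_c6 with 199.9 ± 21.2 and HSP70 comp11814_c1 with 153 ± 13.6. In roots not stored the same 4 contigs had 423 ± 64.1, 653 ± 22.1, 96.4 ± 17.4 and 15.5 ± 8.21 CPM per kb.

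**Figure D3:**
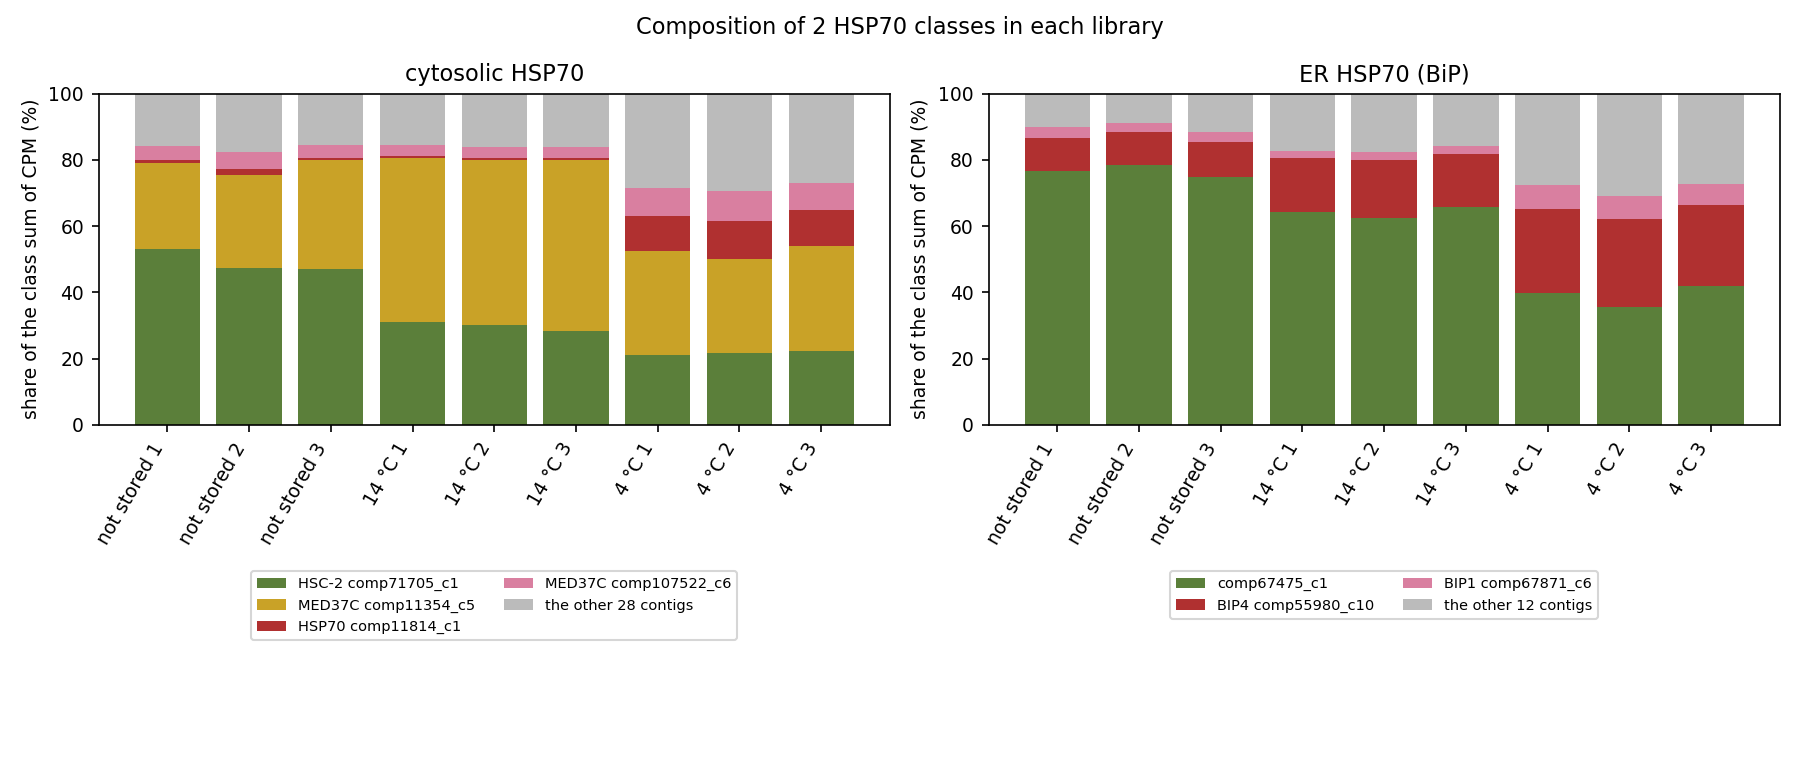
Share (%) of the class sum of CPM (vertical axes) taken by the named contigs in each of the 9 libraries, for the 32 cytosolic HSP70 contigs and the 15 BiP contigs. At 4 °C the most abundant contig of roots not stored gives up share in both classes, from 49.1% to 21.7% for HSC-2 comp71705_c1 and from 76.7% to 39.2% for BiP comp67475_c1.

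BiP, the HSP70 of the ER that binds newly imported secretory proteins, was higher at 4 °C in nearly all of its contigs. Of 15 contigs, 14 were tested, and 13 were higher and 1 lower at 4 °C than at 14 °C, with a median log2 fold change of 2.17. Against roots not stored 12 were higher and 1 lower at 4 °C, with a median of 2.29, and at 14 °C 6 were higher while the other 8 were not called. Both medians are the same with the contig without counts at 4 °C set to its bound. For 4 °C against 14 °C, 11 to 13 contigs stayed higher with any library left out. Over all contigs tested, 23.8% were higher and 24% lower at 4 °C than at 14 °C. Against roots not stored these shares were 26% and 26.6% at 4 °C, and 15.1% and 15.7% at 14 °C.

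The 2 long BiP contigs differed. BiP comp67475_c1, of 2486 bases and with no symbol, had 196, 169 and 175 CPM in the libraries of roots not stored, 162, 146 and 145 CPM at 14 °C, and 177, 204 and 176 CPM at 4 °C. BIP4 comp55980_c10, of 2327 bases, had 25.5, 21.1 and 24.2 CPM in the libraries of roots not stored, 40.5, 41 and 35.5 CPM at 14 °C, and 112, 152 and 102 CPM at 4 °C. The first moved little and read lowest at 14 °C, while BIP4 rose in 2 steps without overlap between groups. For BIP4 the change was 3.12-fold against 14 °C (log2 fold change 1.64 ± 0.16, adjusted p = 3.67e-06), 5.16-fold against roots not stored (log2 fold change 2.37 ± 0.16, adjusted p = 1.71e-07), and 1.65-fold at 14 °C against roots not stored (log2 fold change 0.72 ± 0.15, adjusted p = 0.00398). The small rise of comp67475_c1 at 4 °C against 14 °C (log2 fold change 0.30 ± 0.11, adjusted p = 0.0442) lost its call without any 1 of the 6 libraries at 14 °C and 4 °C, where the adjusted p ran from 0.052 to 0.142. It did not differ beyond its spread from roots not stored (log2 fold change 0.05 ± 0.11, adjusted p = 0.747).

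BIP1 comp67871_c6, of 560 bases, had 8.21, 6.35 and 7.42 CPM in the libraries of roots not stored, 5.81, 5.69 and 5.6 CPM at 14 °C, and 32.6, 39.8 and 26.3 CPM at 4 °C. It rose 5.77-fold at 4 °C against 14 °C (log2 fold change 2.53 ± 0.17, adjusted p = 1.89e-07), and unlike BIP4 it was not called between 14 °C and roots not stored (log2 fold change -0.36 ± 0.16, adjusted p = 0.11). BIP5 comp17353_c3, of 1637 bases, had 4.36, 2.06 and 5.05 CPM in the libraries of roots not stored, 11.9, 11.7 and 9.94 CPM at 14 °C, and 16.5, 24.3 and 15.6 CPM at 4 °C, a stepwise order with no overlap between groups. BIP5 rose 2.93-fold at 14 °C (log2 fold change 1.55 ± 0.29, adjusted p = 0.00227) and 4.92-fold at 4 °C (log2 fold change 2.30 ± 0.29, adjusted p = 5.74e-05) against roots not stored. Its further rise from 14 °C to 4 °C (log2 fold change 0.75 ± 0.28, adjusted p = 0.0459) lost its call without any 1 library of either store other than the third at 4 °C, with adjusted p of 0.060 to 0.148. The fragments BIP4 comp86351_c1 and BIP4 comp81659_c3 had the largest rises of BiP against roots not stored, with log2 fold changes of 3.35 ± 0.39 (adjusted p = 1.89e-05) and 3.02 ± 0.26 (adjusted p = 1.51e-06). 

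BIPE3 went the other way. Its contig comp920_c1, of 267 bases, had 11, 6 and 9 counts in the libraries of roots not stored, 47, 31 and 28 counts at 14 °C and none in any library at 4 °C. That is at least 10.4-fold lower than at 14 °C and at least 2.69-fold lower than in roots not stored, with 3 counts per library as the floor. It was called lower in both comparisons (adjusted p = 3.96e-05 and 0.000564) and higher at 14 °C than in roots not stored (adjusted p = 0.0123, or 0.0665 without the first library at 14 °C). The other BIPE3 contig, comp17354_c4, did not pass the filter and had 24 counts at 14 °C, 3 in roots not stored and none at 4 °C. It was chosen for mention after its values were seen.

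Summed over 15 contigs, BiP had 235 ± 20.1 CPM in roots not stored, 236 ± 15.5 CPM at 14 °C and 479 ± 82.6 CPM at 4 °C, a 2.03-fold higher mean at 4 °C than at 14 °C. All 3 libraries at 4 °C, at 445, 573 and 419 CPM, stood above the other 6. The sum was higher under every scaling tried, from 1.82-fold with library totals alone to 2.74-fold in the deposited TPM. The contig comp67475_c1 took 76.7% ± 1.81 of the sum in roots not stored, 64.2% ± 1.60 at 14 °C and 39.2% ± 3.27 at 4 °C. Without it the other 14 summed to 54.9 ± 7.43, 84.5 ± 7.43 and 293 ± 67 CPM. Those 3 groups did not overlap.

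**Figure D4:**
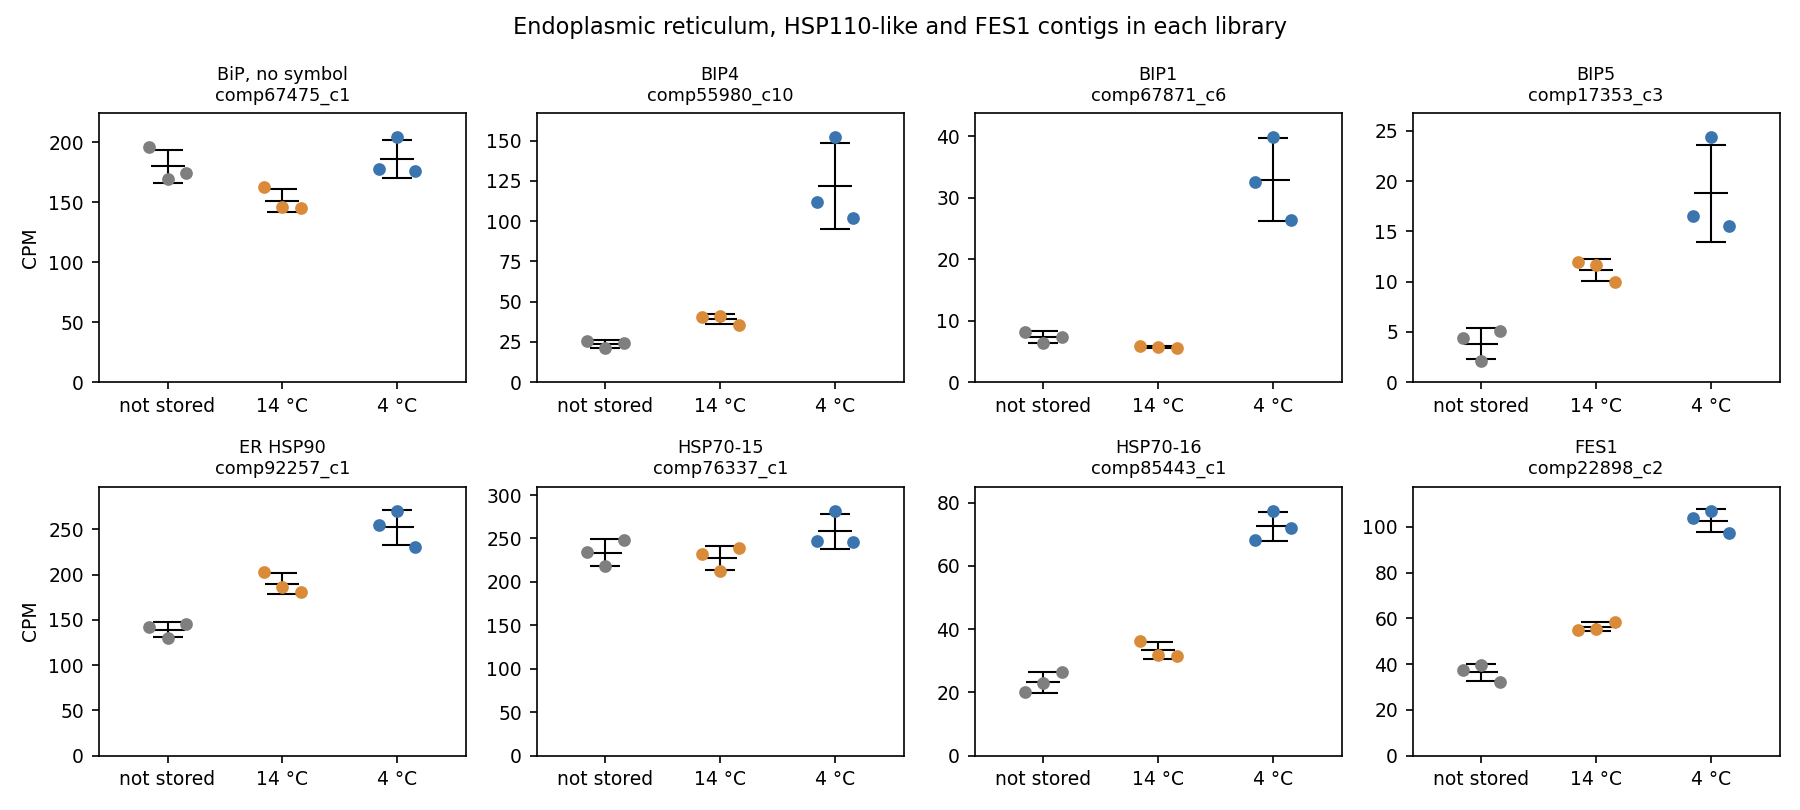
CPM (vertical axes, each from 0 and on its own scale) of 4 BiP contigs, the ER HSP90, both HSP110-like contigs and FES1 in the 9 libraries. Points are libraries and bars are group means ± SD (n = 3). BIP4, BIP5, ER HSP90, HSP70-16 and FES1 step up from roots not stored to 14 °C to 4 °C, while comp67475_c1 and HSP70-15 stay nearly level.

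The ER form of HSP90, which folds a narrower set of secretory proteins after BiP, was represented by 1 long contig and 7 short ones of 218 to 613 bases. HSP90 comp92257_c1, of 2780 bases, had 142, 129.6 and 145 CPM in the libraries of roots not stored, 203, 186 and 180.5 CPM at 14 °C, and 255, 270.2 and 231 CPM at 4 °C. The groups stepped up without overlap. It was 1.33-fold higher at 4 °C than at 14 °C (log2 fold change 0.41 ± 0.11, adjusted p = 0.00783), 1.81-fold higher at 4 °C than in roots not stored (log2 fold change 0.86 ± 0.11, adjusted p = 3.38e-05), and 1.37-fold higher at 14 °C than in roots not stored (log2 fold change 0.45 ± 0.11, adjusted p = 0.00807). The first of these calls was lost with library totals alone (log2 fold change 0.26, adjusted p = 0.0706), and the last without the second library of roots not stored (0.37, adjusted p = 0.0508).

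The short ER HSP90 contigs all had means under 1 CPM. Of these, comp46383_c1 was lower at 4 °C than in roots not stored (log2 fold change -1.13 ± 0.38, adjusted p = 0.0252), a call lost without the second library of roots not stored or the second or the third at 4 °C, and it was mentioned after its values were seen. For 4 °C against 14 °C, comp5841_c1 gave a log2 fold change of -0.46 ± 0.37 (adjusted p = 0.329), and comp102694_c1, whose symbol pakF does not name an HSP90, gave 0.43 ± 0.45 (adjusted p = 0.461). The contig comp92257_c1 accounted for nearly all of the class sum of 141 ± 8.39, 192 ± 11.9 and 254 ± 19.6 CPM. Per kilobase it read 50 ± 2.96 CPM per kb in roots not stored and 90.6 ± 7.12 at 4 °C, beside 72.3 ± 5.65 and 74.7 ± 6.34 for BiP comp67475_c1 and 10.1 ± 0.983 and 52.4 ± 11.4 for BIP4 comp55980_c10.

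Of the proteins that reset HSP70, the HSP110-like contigs were both over 2000 bases long. HSP70-15 comp76337_c1, of 3088 bases, had 235, 218 and 248 CPM in the libraries of roots not stored, 232, 213 and 239 CPM at 14 °C, and 247, 282 and 246 CPM at 4 °C. It was not called in any comparison (log2 fold change 0.18 ± 0.11, adjusted p = 0.186 for 4 °C against 14 °C), although its 3 libraries at 4 °C read above those at 14 °C. HSP70-16 comp85443_c1, of 3145 bases, had 20.1, 22.8 and 26.4 CPM in the libraries of roots not stored, 36.4, 31.8 and 31.6 CPM at 14 °C, and 68.1, 77.3 and 72 CPM at 4 °C. It stepped up without overlap and was 2.18-fold higher at 4 °C than at 14 °C (log2 fold change 1.12 ± 0.13, adjusted p = 1.64e-05), 3.13-fold higher than in roots not stored (log2 fold change 1.65 ± 0.13, adjusted p = 5.81e-07) and 1.44-fold higher at 14 °C than in roots not stored (log2 fold change 0.52 ± 0.13, adjusted p = 0.0083). The difference between both genes in their response was not tested.

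Both contigs described as HSP70-interacting protein rose at 4 °C. FES1 comp22898_c2, in Saccharomyces cerevisiae a nucleotide exchange factor of cytosolic HSP70, had 37.4, 39.7 and 32.4 CPM in the libraries of roots not stored, 55.1, 55.5 and 58.6 CPM at 14 °C, and 104, 107 and 97.4 CPM at 4 °C. Its groups stepped up without overlap, 1.82-fold at 4 °C against 14 °C (log2 fold change 0.87 ± 0.11, adjusted p = 4.5e-05), 2.81-fold against roots not stored (log2 fold change 1.49 ± 0.11, adjusted p = 4.21e-07) and 1.54-fold at 14 °C (log2 fold change 0.63 ± 0.11, adjusted p = 0.00129). The contig comp74369_c2, with no symbol, had 13.4, 13.5 and 8.62 CPM in the libraries of roots not stored, 9.2, 11.5 and 11.3 CPM at 14 °C, and 22.8, 27 and 20.8 CPM at 4 °C. It was higher at 4 °C than in both other groups (log2 fold change 1.14 ± 0.18, adjusted p = 0.000283 and log2 fold change 0.99 ± 0.18, adjusted p = 0.000672), which overlapped each other (log2 fold change -0.15 ± 0.18, adjusted p = 0.569).

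Plastid HSP70s, which help import proteins into plastids and fold them there, were mostly not called. Of 25 contigs, 4 were higher and 3 lower at 4 °C than at 14 °C, 5 were higher and 6 lower at 4 °C than in roots not stored, and 3 were higher and 3 lower at 14 °C than in roots not stored. These shares lie below the background or near it. The count lower at 4 °C than at 14 °C was 5 without the third library of roots not stored and 7 with library totals alone. The count lower at 14 °C was 1 without the second library at 14 °C and 5 without the second at 4 °C. The sum over the class fell slightly, with 399 ± 17.7, 373 ± 21 and 321 ± 5.9 CPM, and at 4 °C every library was under those of both other groups. In the deposited TPM the sum at 4 °C overlapped that of roots not stored (265 ± 16.7 against 258 ± 34.6).

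Within the plastid class, contigs diverged. HSP70 comp8508_c1 had 8.81, 7.44 and 14.6 CPM in the libraries of roots not stored, 32.4, 28.5 and 23.9 CPM at 14 °C, and 19.2, 17.2 and 19.8 CPM at 4 °C. It rose at 14 °C (log2 fold change 1.46 ± 0.22, adjusted p = 0.000565) and at 4 °C (log2 fold change 0.86 ± 0.22, adjusted p = 0.00616) against roots not stored. The fall from 14 °C to 4 °C (log2 fold change -0.60 ± 0.22, adjusted p = 0.0414) lost its call without any of the libraries at 4 °C or without the first or second at 14 °C, with adjusted p of 0.074 to 0.138. HSP70-6 comp78807_c1 had 9.62, 8.79 and 12.6 CPM in the libraries of roots not stored, 22.3, 17.7 and 17.5 CPM at 14 °C, and 12.1, 11.5 and 11.5 CPM at 4 °C. It was highest at 14 °C without overlap, higher than in roots not stored (log2 fold change 0.89 ± 0.16, adjusted p = 0.00141) and higher than at 4 °C (log2 fold change -0.71 ± 0.16, adjusted p = 0.00278), while 4 °C and roots not stored overlapped.

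The second HSP70-6 contig, comp107547_c1, also rose at 14 °C (log2 fold change 1.42 ± 0.24, adjusted p = 0.00105), but 4 °C and 14 °C did not differ beyond their spread (log2 fold change -0.37 ± 0.23, adjusted p = 0.217). HSP70-7 comp29773_c10, at 1.87 ± 0.425 CPM in roots not stored, 1.47 ± 0.673 CPM at 14 °C and 0.512 ± 0.156 CPM at 4 °C, fell at 4 °C against both (log2 fold change -1.51 ± 0.36, adjusted p = 0.00416 and log2 fold change -1.87 ± 0.36, adjusted p = 0.00089). HSP70-6 and HSP70-7 are the paired plastid HSP70 genes of Arabidopsis.

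The other 3 HSP70-7 contigs, mentioned after their values were seen, were all higher at 4 °C than at 14 °C, so that 3 of the 4 rises of the plastid class had this symbol. The most abundant, comp66928_c13, had 28.3, 27 and 24.3 CPM in the libraries of roots not stored, 11.1, 12.1 and 16.6 CPM at 14 °C, and 24.2, 19.9 and 20.2 CPM at 4 °C. It was lowest at 14 °C without overlap, lower than in roots not stored (adjusted p = 0.000697), and rose from 14 °C to 4 °C (log2 fold change 0.69 ± 0.16, adjusted p = 0.00346). The contigs comp96920_c1 and comp46659_c8 gave log2 fold changes of 2.20 ± 0.32 (adjusted p = 0.00012) and 1.71 ± 0.46 (adjusted p = 0.0096) for 4 °C against 14 °C. Summed over its 4 contigs, HSP70-7 had 29.4 ± 2.79 CPM in roots not stored, 15.7 ± 3.41 CPM at 14 °C and 25.5 ± 2.42 CPM at 4 °C, a rise from 14 °C to 4 °C (log2 fold change 0.70 ± 0.16, adjusted p = 0.00368).

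The most abundant plastid contig, HSP70 comp24121_c1 of 2583 bases, had 199.9, 174 and 192 CPM in the libraries of roots not stored, 163, 142 and 152 CPM at 14 °C, and 123, 135 and 118 CPM at 4 °C. It was chosen for mention after its values were seen. Its groups stepped down without overlap, and 4 °C was 1.51-fold under roots not stored (log2 fold change -0.59 ± 0.11, adjusted p = 0.000675). Against 14 °C it was not called (log2 fold change -0.28 ± 0.11, adjusted p = 0.0514).

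HspQ, known in Escherichia coli as a heat shock protein involved in the turnover of other proteins, was lower at 4 °C. All 3 contigs were lower at 4 °C than at 14 °C and than in roots not stored, while their adjusted p between 14 °C and roots not stored were 0.652, 0.146 and 0.338. The contig comp15984_c1, of 1479 bases, had 7.15, 6.78 and 7.28 CPM in the libraries of roots not stored, 7.15, 7.04 and 8.52 CPM at 14 °C, and 3.71, 3.06 and 3.2 CPM at 4 °C, with 4 °C under both overlapping groups (log2 fold change -1.19 ± 0.15, adjusted p = 4.34e-05 against 14 °C). The contigs comp71540_c1 and comp37525_c1 had log2 fold changes of -0.97 ± 0.25 (adjusted p = 0.00736) and -1.30 ± 0.35 (adjusted p = 0.00911) in the same comparison. The class summed to 12.7 ± 1.15, 11.6 ± 1.46 and 5.29 ± 0.85 CPM.

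A few members were read almost only in single libraries. HSPA8 comp104637_c1 had 46 counts in the third library at 4 °C and 1 count in the other 8 libraries together. For hsc71 comp97821_c1, 27 of its 31 counts at 4 °C came from the same library, and roots not stored had 2 counts. Both symbols are names of animal proteins, and neither contig passed the filter. TTL1 comp71140_c1, whose symbol names another kind of protein, was called lower at 4 °C than in roots not stored (log2 fold change -2.16 ± 0.76, adjusted p = 0.0315) although the libraries overlapped. That call was lost without the second or the third library of either group, with adjusted p up to 0.113. These contigs were chosen for mention after their values were seen.

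Because copies can share reads, counts were also summed over contigs with the same symbol and description. Of 33 sums, 30 were tested, and 18 were higher and 6 lower at 4 °C than at 14 °C, 15 higher and 6 lower at 4 °C than in roots not stored, and 9 higher and 6 lower at 14 °C than in roots not stored. Over all 69001 sums tested, 21.8%, 23.2% and 13.4% were higher and 23.9%, 27.5% and 16.1% lower in these comparisons. The 6 sums lower at 14 °C became 3 without the first or the second library at 14 °C. The sum of the 10 HSC-2 contigs had a log2 fold change of -0.26 ± 0.10 for 4 °C against 14 °C (adjusted p = 0.0546) and -0.97 ± 0.10 for 4 °C against roots not stored (adjusted p = 7.11e-06). The 7 MED37C contigs together were lower at 4 °C than at 14 °C (-0.31 ± 0.11, adjusted p = 0.0329) and higher at 14 °C than in roots not stored (0.56 ± 0.11, adjusted p = 0.00222). The 22 contigs named HSP70, of which 8 are cytosolic and 14 plastid, were higher at 4 °C than at 14 °C as 1 sum (1.08 ± 0.10, adjusted p = 3.37e-06). This sum mixes both classes and holds the strongly rising cytosolic comp11814_c1. The plastid class as a whole fell from 373 ± 21 CPM at 14 °C to 321 ± 5.9 CPM at 4 °C. BIP4, BIP1 and BIP5 sums rose by 1.74 ± 0.15, 2.58 ± 0.16 and 1.04 ± 0.18 log2 units in the same comparison (adjusted p = 1.76e-06, 1.04e-07 and 0.000556). In the deposited TPM the HSC-2 sum overlapped between all groups (813 ± 77.4 in roots not stored, 773 ± 73.1 at 14 °C and 741 ± 42.2 at 4 °C).

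Long and short members were also counted apart. Among the 15 members over 2000 bases, 5 were higher and 4 lower at 4 °C than at 14 °C, with a median log2 fold change of -0.20. With library totals alone 3 were higher and 8 lower, 7 were lower with only the 2 groups compared, and 2 were lower with the 100 most abundant contigs removed. Among the 68 tested members under 2000 bases, 39 were higher and 8 lower, with a median of 0.91. The length division was chosen after the values were seen and the difference was not tested.

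Partners of HSP70 and HSP90 in the same table differed from list to list. The HSP90s described as molecular chaperone HtpG, whose cell compartment was not checked, had 20 of 28 tested contigs higher and 2 lower at 4 °C than at 14 °C. Their median log2 fold change was 0.60. These were 71.4% and 7.1% of the HtpG contigs tested, beside 23.8% and 24% over all contigs tested. The most abundant of the list, HSC80 comp37928_c9, had 522, 531 and 437 CPM in the libraries of roots not stored, 394, 364 and 428 CPM at 14 °C, and 422, 469 and 381 CPM at 4 °C and did not differ beyond its spread between 4 °C and 14 °C (log2 fold change 0.10 ± 0.12, adjusted p = 0.53). HSP83A comp79179_c1 had the smallest adjusted p of the list, at 0.847 ± 0.187 CPM at 14 °C and 6.86 ± 0.814 CPM at 4 °C (log2 fold change 3.01 ± 0.21, adjusted p = 2.69e-07). The HtpG sum had 1154.5 ± 43.1 CPM in roots not stored, 1183 ± 64.1 CPM at 14 °C and 1319.7 ± 103 CPM at 4 °C.

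HSP70s under the bacterial name DnaK, which in plants are found in mitochondria and plastids, had 9 of 9 contigs higher at 4 °C than at 14 °C (median 2.66) and 9 of 9 higher than in roots not stored (median 3.20). The most abundant, comp84288_c2, had 62.8, 63.1 and 61.9 CPM in the libraries of roots not stored, 97.1, 93.3 and 90.7 CPM at 14 °C, and 157, 183 and 157 CPM at 4 °C (log2 fold change 0.82 ± 0.10, adjusted p = 4.09e-05 for 4 °C against 14 °C). The contig comp28489_c2 rose from 4.77 ± 0.345 CPM at 14 °C to 38.7 ± 8.56 CPM at 4 °C (log2 fold change 3.02 ± 0.18, adjusted p = 9.54e-08). This stood beside the plastid HSP70 members above, of which 4 of 25 were higher in that comparison.

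J-domain proteins, the client-loading partners of HSP70, had 45 higher (25.3%) and 38 lower (21.3%) of 178 tested at 4 °C against 14 °C. These shares were near the 23.8% and 24% over all contigs tested. Against roots not stored, 50 were higher (28.1%) and 54 lower (30.3%) at 4 °C, beside 26% and 26.6%. The summed level of the list was lower in both stores. It was 5987.5 ± 640.5 CPM in roots not stored, 4121 ± 269 CPM at 14 °C and 3807 ± 64.3 CPM at 4 °C. The most abundant J-domain contig, DNAJ1 comp32166_c1, fell across the groups, with 1467, 1416 and 1077 CPM in the libraries of roots not stored, 666, 660.1 and 861 CPM at 14 °C, and 357, 303 and 327 CPM at 4 °C (log2 fold change -1.15 ± 0.15, adjusted p = 5.32e-05 for 4 °C against 14 °C and log2 fold change -2.00 ± 0.15, adjusted p = 4.88e-07 against roots not stored). The contig comp73818_c1, described as subfamily C member 3, known in mammals as an ER J-domain protein, had 0.165, 0.54 and 0.387 CPM in the libraries of roots not stored, 0.127, 0.201 and 0.0551 CPM at 14 °C, and 30.9, 48 and 26.1 CPM at 4 °C and was the list's smallest adjusted p (log2 fold change 8.04 ± 0.48, adjusted p = 3.01e-07). It was close to absent in the other 2 groups.

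Nucleotide exchange factors had 2 of 6 contigs lower at 4 °C than at 14 °C (33.3%, against 24% over all contigs tested). The count lower was 1 without the second library at 14 °C or without the second or the third at 4 °C. HSP70-17 comp9787_c1, an ER relative of HSP110, was level (log2 fold change 0.16 ± 0.13, adjusted p = 0.313), and grpE comp26091_c1, the exchange factor of organelle HSP70s, fell from 43.6 ± 5.46 to 22.8 ± 3.33 CPM (log2 fold change -0.94 ± 0.16, adjusted p = 0.000378). HSP90 cochaperones had 8 higher (25%) and 7 lower (21.9%) of 32 in the same comparison, near the 23.8% and 24% over all contigs tested. The count higher was 4 to 5 without any 1 library of 14 °C or without the first or second of 4 °C. Against roots not stored, 18 HSP90 cochaperones were higher (56.25%) and 1 lower (3.1%) at 14 °C, against 15.1% and 15.7% over all contigs tested. The count lower was 2 without the second or the third library of roots not stored or the third at 14 °C. FKBP62 comp92093_c1, the most abundant, was at 220.1 ± 9.32, 279.6 ± 26.4 and 236 ± 11.6 CPM, and FKBP42 comp32620_c1 fell from 20.4 ± 2.27 CPM at 14 °C to 8.57 ± 0.123 CPM at 4 °C (log2 fold change -1.25 ± 0.13, adjusted p = 7.66e-06).

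ClpB, the disaggregase that works with HSP70 on protein aggregates, had 2 of 14 contigs higher (14.3%) and 7 lower (50%) at 4 °C than at 14 °C. Over all contigs tested these shares were 23.8% and 24%. The count higher was 1 without the second or the third library at 14 °C or the first or the third at 4 °C. Against roots not stored, 7 ClpB contigs were higher (50%) and 3 lower (21.4%) at 4 °C, with a median log2 fold change of 0.24. Over all contigs tested, 26% and 26.6% were called so. The list summed to 492 ± 64.7 CPM in roots not stored, 764 ± 85.4 CPM at 14 °C and 588 ± 34.2 CPM at 4 °C. Its contig clpB comp52098_c1 had 8.46, 8.37 and 9.07 CPM in the libraries of roots not stored, 23.3, 16.1 and 14.9 CPM at 14 °C, and 1.8, 1.32 and 1.21 CPM at 4 °C and fell at 4 °C against both (log2 fold change -3.65 ± 0.22, adjusted p = 7.56e-08 against 14 °C). The most abundant, clpE comp63349_c3, was at 123 ± 13.5, 178 ± 22.4 and 139.7 ± 10.5 CPM, a rise at 14 °C against roots not stored (log2 fold change 0.53 ± 0.13, adjusted p = 0.00836). Chaperonins had 35 higher (43.2%) and 11 lower (13.6%) of 81 at 4 °C against 14 °C, beside 23.8% and 24% over all contigs tested. Their summed level was nearly the same in both stores. It was 2090.5 ± 193 CPM in roots not stored, 1997 ± 141 CPM at 14 °C and 1998 ± 145 CPM at 4 °C. Both named chaperonin contigs fell from 14 °C to 4 °C: GroEL comp54330_c7 from 282 ± 37.9 to 108 ± 6.91 CPM (log2 fold change -1.39 ± 0.13, adjusted p = 3.76e-06) and CPN60B2 comp99988_c4 from 133 ± 9.48 to 48 ± 2.64 CPM (log2 fold change -1.47 ± 0.12, adjusted p = 1.25e-06). Within the chaperonins the GroEL type had 5 higher and 8 lower of 30, while the subunits of the cytosolic T-complex differed. Its subunit delta had 10 higher of 12, epsilon 10 higher and 1 lower of 13, eta 4 higher of 7 and beta 3 higher of 6. Subunit alpha had 1 lower of 4 with a median of -0.85, the single contigs of theta and zeta were higher, and that of gamma was not called (0.04).

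Other folding proteins of the ER were also mostly higher at 4 °C. Of 32 tested contigs of calnexin, calreticulin and protein disulfide isomerase, 21 were higher (65.6%) and 1 lower (3.1%) at 4 °C than at 14 °C, with a median of 0.99. Over all contigs tested, 23.8% were higher and 24% lower. Calnexin comp43777_c2 had 366, 370.1 and 348 CPM in the libraries of roots not stored, 323, 318 and 339.9 CPM at 14 °C, and 542, 608 and 484 CPM at 4 °C (log2 fold change 0.74 ± 0.11, adjusted p = 0.000154). Calreticulin comp79423_c1 had 138, 119 and 118 CPM in the libraries of roots not stored, 104, 98 and 98.6 CPM at 14 °C, and 304, 325 and 266 CPM at 4 °C (log2 fold change 1.58 ± 0.12, adjusted p = 4.41e-07). Both stood highest at 4 °C without overlap. At 14 °C against roots not stored the list had 4 higher and 7 lower, and 1 to 2 higher without the second or the third library of roots not stored or the first or second at 14 °C. With library totals alone 8 were higher.

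**Figure D5:**
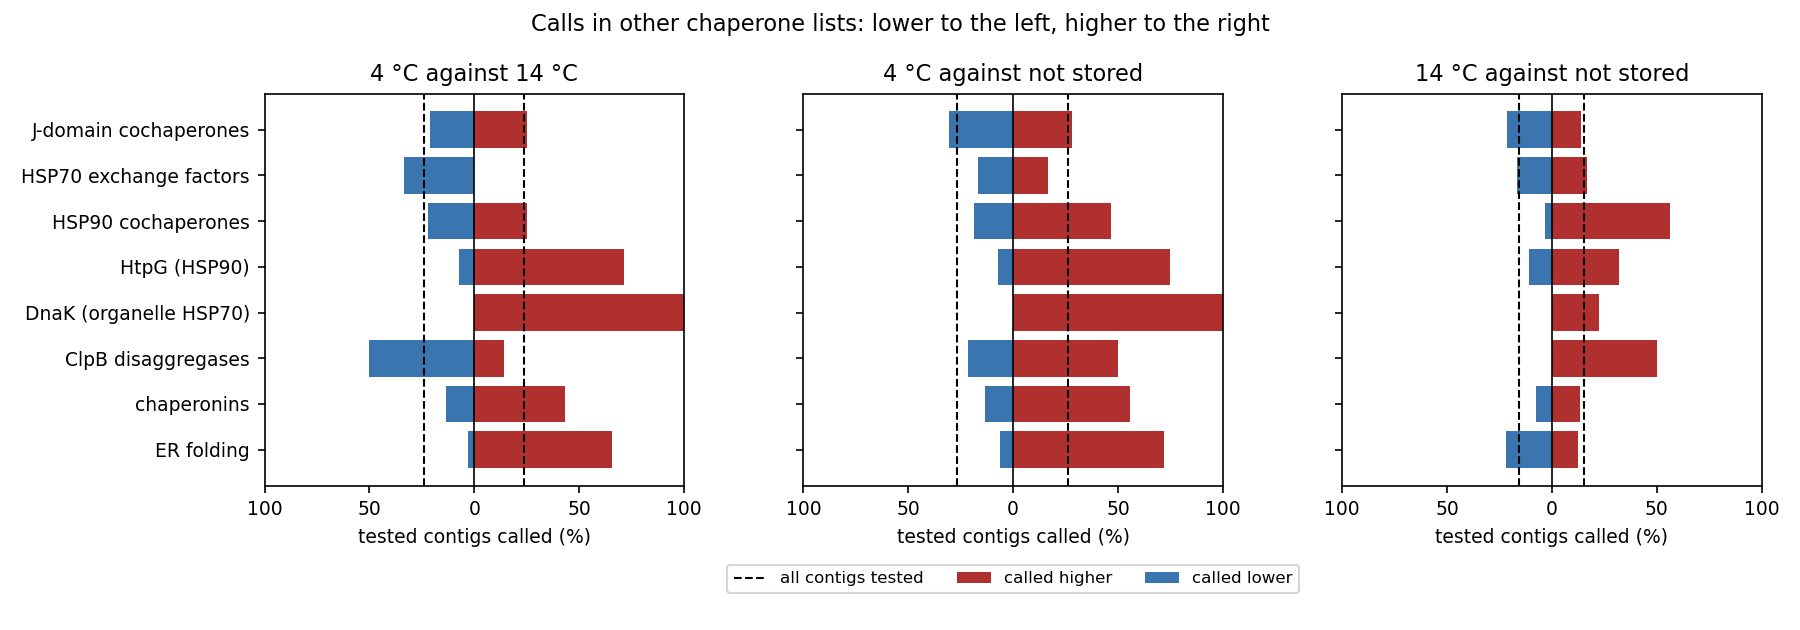
Share (%) of tested contigs called higher (right of 0) and lower (left of 0) in 8 lists of other chaperones and cochaperones (vertical axis) in the 3 comparisons. Dashed lines give the same shares over all 94802 contigs tested. DnaK, HtpG and ER folding contigs are mostly higher at 4 °C, while J-domain proteins lie near the dashed lines.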

How the data were processed

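RNA from pools of 7 storage roots was sequenced in 9 libraries, 3 per group. The authors deposited 1 table with estimated counts, TPM and RPKM per contig and library, per the file headers, together with product descriptions, symbols and Gene Ontology terms. The counts are expected counts, of which 18.7 to 22.6% were whole (tolerance 1e-08). The deposited TPM were used for class sums as an alternative scale, and the deposited RPKM were not used further. Without roles or order, the submitters' processing notes list HISAT2 2.0.4, cutadapt 1.9, StringTie 1.3.4d, edgeR and DESeq2, and the counter and its strand setting are not given in the sources used here.

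Rounded counts were tested with edgeR 4.0.16 in R 4.3.3 (filterByExpr, TMM, robust quasi-likelihood test, all 9 libraries in 1 fit), with Benjamini-Hochberg adjustment over 94802 contigs and a threshold of 0.05. SEs of log2 fold changes are the absolute change over the root of F. CPM were counts per 1000000 of library size times TMM factor. No label says whether the 3 pools of a group came from separate plots, so p-values measure the spread between pools. Limits from counts cover counting error only. Scripts for figures used Python 3.11.15 and matplotlib 3.10.9. The scripts were tested on simulated data.

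Named contigs were the 3 most abundant of each class, the 4 largest called rises and falls of each comparison (groups not overlapping, a mean of 1 CPM or more in the higher one), and all members of classes with at most 4. In the choice by abundance, cytosolic and plastid HSP70s counted as 1 class, and its 3 contigs were all cytosolic. For the rises and falls, the lack of overlap in the naming comparison was set by this rule and is no separate result. Each related list gave its most abundant contig and its called contig of lowest adjusted p between both stores. The members and lists were chosen with earlier results of these data known, and the plastid division was made after the table was read. Small heat shock proteins and heat stress transcription factors were not analysed here. Alternatives were DESeq2 1.42.0, limma 3.58.1 (voom), other scalings and filters, a replicate block, only the 2 groups compared, and each library left out. Sequences were not used here.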

Additional observations from a re-analysis of the deposited data

How the results depend on the processing

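For 4 °C against 14 °C and against roots not stored, the counts of members called higher and lower stayed within 1.5 times the main counts under every alternative run except the fold threshold. At least 2-fold, 4 members were lower at 4 °C than at 14 °C, 8 were lower at 4 °C than in roots not stored, and 7 were higher and 6 lower at 14 °C than in roots not stored. The count lower at 14 °C than in roots not stored was 9 with library totals alone, 26 with the DESeq2 Wald test, and 9 to 25 with a library left out. For sums over symbols it was 3 to 7 with a library left out, 3 without the first or the second library at 14 °C. The cause was not tested. The labels do not say that replicate numbers pair the libraries. Correlations of deviations between same-numbered libraries ran from -0.547 to 0.314, and 2 of 9 were over 0.1. Between libraries of other numbers they ran from -0.3 to 0.492. With 3 libraries per group these values cannot decide whether the numbers pair libraries. With the replicate block, 42 members were higher and 14 lower at 4 °C than at 14 °C, 36 and 11 at 4 °C against roots not stored, and 15 and 13 at 14 °C against roots not stored. Of 1443 alternative values for 81 results on named contigs, 1415 kept their direction and side of the threshold, 25 lost the call, 3 gained it and 0 reversed. Any such change occurred in 8 of the 81 results. Many named contigs were picked for large called changes, and some libraries left out were outside the comparison. The high agreement was therefore partly set in advance. Class and list counts under the alternatives were added after seeing the data. Contigs under about 1 CPM, among them all short ER HSP90 contigs, rest on few counts.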
